A study of Mus musculus with 3 samples.

Results

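Retinol saturase (Retsat) and 8 genes that make, carry or sense retinoids were followed across 3 arrays of NIH3T3 cells, an immortalised line of mouse embryonic fibroblasts. The 9 genes were Retsat, Rdh10, Rdh11, Rdh14, Dhrs3, Crabp1, Crabp2, Rara and Rarg, and every probe set whose platform annotation named exactly 1 of them and no other gene was taken. That gave 15 probe sets of the 34945 with 1 gene symbol. The study screened short hairpin RNAs (shRNAs) for resistance to oxidative stress. The controls were 2 arrays of cells with the empty vector, called here empty vector 1 and empty vector 2 after the numbers in their titles, which were grown in 10% calf serum, were given no treatment and represent basal expression. The third array held cells with an shRNA against Retsat that are labelled as strongly resistant to t-BHP (tert-butyl hydroperoxide, which stresses cells by oxidation). For these cells the growth conditions, any treatment, the hairpin's sequence, and whether they were a clone or a pool are not stated in the sources used here. Nor is it said whether the arrays came from separate cultures. The title of the shRNA array also ends in 2, as that of empty vector 2 does, and what that number stands for is not stated.

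Retinol, the alcohol form of vitamin A, enters fibroblasts from serum and is either stored as an ester or oxidised. Dehydrogenases of the short-chain family interconvert retinol and retinal, retinal dehydrogenases then make retinoic acid irreversibly, and CYP26 enzymes break it down. Cellular retinoic acid binding proteins hold the acid in the cytoplasm, and retinoic acid receptors, paired with retinoid X receptors, bind DNA and switch target genes. Retsat stands beside this route: it saturates a double bond of retinol to give dihydroretinol, and it is also known as a gene of fat cell differentiation.

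Expression is given as the deposited signal of a probe set, a linear intensity scaled to a common level on each array. Levels are compared between arrays and never between probe sets. Log2 differences were taken after adding 10.2 to each signal, so they understate the change of dim probe sets. A probe set was tested when its mean log2 signal reached the median of the array, which held for 13 of the 15 probe sets and 8 of the 9 genes, and for 19518 probe sets in all. The exceptions were the Crabp2 probe set and the third Rdh14 probe set. With a lone shRNA array there are 3 ways to choose which array stands alone, so an exact permutation test cannot give a p below 0.333, and in limma's moderated test the spread comes from the controls, shared across probe sets.

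The empty-vector arrays were unequally close to the shRNA array, which bears on every value given here. Over the tested probe sets the log2 difference had an SD of 0.383 between RetSat shRNA and empty vector 2, 0.789 between the empty-vector arrays, and 0.806 between RetSat shRNA and empty vector 1. Fibroblast genes such as Col1a2 (13012, 13247 and 14057, always in the order empty vector 1, empty vector 2, then RetSat shRNA) and Vim (18225, 15264 and 14642) were bright on all arrays, although Fap read at most 6.6. Of the markers of other cell types, no endothelial gene out of 6 was bright enough to test, and 4 of 7 epithelial, 2 of 5 leukocyte and 1 of 4 adipocyte genes were, with Ptprc at most 15.2 and Cdh1 at most 12.5. Their summed signals were 297, 239.5 and 295.5 for epithelial genes, 225, 239 and 206 for leukocyte genes, and 487, 334 and 440.4 for Fabp4, the adipocyte gene. Proliferation genes differed in both directions between the controls. Mki67 (3234, 125 and 122), Top2a (5904, 654.5 and 624) and Bub1 (1343, 210.3 and 201) were far higher on empty vector 1. Cdk1, Plk1, Mcm2 and Mcm5 were lowest there, and Pcna was about level (10420.2, 10141 and 10310.2). The 10 tested genes of that list summed to 33526, 26823 and 25089. On RetSat shRNA 5 of them lay below both controls and 1 above, beside 25.4% and 34.4% of all tested genes, and these counts became 2 and 2 with median centring and 6 and 0 with quantile normalization. The part of these differences in the results was not tested.

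Retsat was the member that differed most, and it was far lower with its own shRNA. Its brighter probe set, 1424715_at, read 416 and 496 on the controls and 69.5 on RetSat shRNA. The other, 1424716_at, read 107, 90.3 and 17.7. Both probe sets therefore separated the shRNA array from both controls by a wide gap, and the controls stood close together, with an order that differed between the probe sets. As a share of the empty-vector mean, 15.2% of the signal was left on the brighter probe set (456 ± 56.6, SD, n = 2) and the other went from 98.7 ± 11.8 (SD, n = 2) to 17.7. That last reading is below the level used for testing, which the probe set passed through its controls, so no share left is given for it. In a bulk sample, fewer cells with the RNA and less RNA per cell cannot be told apart.

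On the log2 scale the brighter Retsat probe set differed by -2.42 (against empty vector 1) and -2.67 (against empty vector 2), and the dimmer one by -2.07 and -1.85. The empty-vector arrays themselves differed by 0.25 and -0.22. Because the dimmer probe set reached the level for testing only through its controls, its limma values add no separate support. In limma the mean difference was -2.54 (SE 0.496, 95% interval -3.72 to -1.36, unadjusted p = 0.00152) and -1.96 (SE 0.495, interval -3.14 to -0.78, unadjusted p = 0.00586). Neither passed after Benjamini-Hochberg adjustment over all tested probe sets (adjusted p = 1 for each). No probe set of any gene did, so limma called 0% of the 19518, with 201 at an unadjusted p under 0.05. The 2 Retsat probe sets were the members that lay at least 2-fold below both empty-vector arrays, a rule of size met by 0.932% of all tested probe sets (182). The dimmer one passed the filter only through its controls, so it adds no separate support to this count either. The annotation also gives both Retsat probe sets the same source sequence. With the 75th percentile filter 2 probe sets lay at least 2-fold below both controls, 1 of them of Retsat. No member lay at least 2-fold above both, a rule met by 0.149% (29). With quantile normalization or median centring the lower share of all probe sets past this rule went from 86.3% to 68.5% and 73.5%. It was 54.9% without the filter on low signals (950 lower and 780 higher), 56.4% without empty vector 1 and 78.0% without empty vector 2.

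Few probe sets lay as far below both controls as those of Retsat: 2 of 19518 for the brighter one, itself and 1 of Pou5f2, and 17 for the dimmer one. The dimmer one was tested only through its controls, so its place in this order is no separate support. The 10 probe sets of other genes with the most similar pair of differences over these 3 arrays, by Euclidean distance on the log2 scale, belonged to Pou5f2, Prdm11, Supv3l1, Slc22a17, Hmgxb4, Cdk6, 2610316D01Rik, Gm3764, Dctn4 and Sparc, at distances of 0.195 to 0.882. The dimmer Retsat probe set was farther away, at 0.889. All 10 were dim, at 117 or less on every array. On RetSat shRNA they read 12.2 or less, below the level used for testing, which they passed through their controls. For 5 of the 10 genes another probe set was brighter, and its differences were smaller. Sparc, a secreted matrix protein of fibroblasts, read 58.9, 83.8 and 11.0 on the similar probe set but 13104, 15323 and 15791 on its brightest. Cdk6, a cell cycle kinase, read 78.0, 63.0 and 8.0 on the similar one and 1582, 1590 and 1320 on its brightest.

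**Figure D1:**
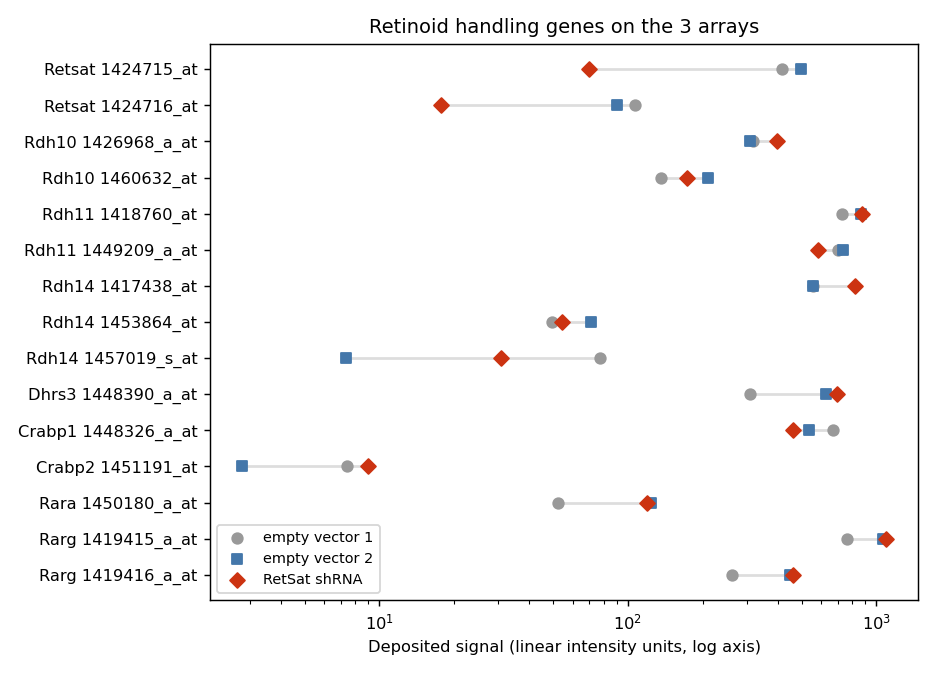
Deposited signal (linear intensity units on a log axis) of the 15 probe sets on the 3 arrays, 1 point per array. Both Retsat probe sets are far lower on RetSat shRNA (69.5 and 17.7), whereas for Dhrs3, Rara and Rarg the RetSat shRNA point lies next to that of empty vector 2 and empty vector 1 is lowest.

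Among the short-chain dehydrogenases, Rdh14 and Rdh10 each had a probe set that was higher on RetSat shRNA than on closely matched controls. Rdh14, an enzyme that acts on retinol and retinal, read 558, 555 and 817 on its brightest probe set, 1417438_at. The shRNA array was 1.47-fold above each control, and the controls differed by 0.01 on the log2 scale in size. Its mean log2 difference was 0.55 (SE 0.489, interval -0.62 to 1.71, adjusted p = 1 in limma), and 331 tested probe sets, or 1.70%, lay as far above both controls. The other Rdh14 probe sets did not follow. 1453864_at read 49.6, 71.2 and 54.5, which puts RetSat shRNA between the controls. 1457019_s_at, which was too dim to test and whose suffix marks probes shared by several transcripts, read 77.2, 7.3 and 30.7, again between the controls. The pattern of the brightest probe set was thus not repeated by the remaining probe sets of the gene.

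Rdh10, the main enzyme that oxidises retinol to retinal in the embryo, read 319, 310.2 and 398 on 1426968_a_at. Here too the controls were level and the shRNA array was above them, by 0.31 and 0.35 on the log2 scale. Its mean difference was 0.33 (SE 0.489, interval -0.84 to 1.49, adjusted p = 1 in limma), and 5.84% of tested probe sets lay as far above both controls. On the second Rdh10 probe set, 1460632_at, the signals were 136, 210.5 and 173, with RetSat shRNA between controls that stood 0.59 apart on the log2 scale. The mean difference there was 0.03 (interval -1.23 to 1.29).

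Rdh11, a retinal reductase of the endoplasmic reticulum, had mean log2 differences of opposite sign on its probe sets (0.13 and -0.29). 1418760_at read 729.6, 868 and 873, so that RetSat shRNA matched empty vector 2 and both exceeded empty vector 1. 1449209_a_at read 700.2, 731 and 583, with RetSat shRNA below both controls by 0.26 and 0.32 on the log2 scale. Such disagreement was common: of 5131 genes with at least 2 tested probe sets, 44.9% had probe sets with log2 differences of opposite sign, and the median gap between a gene's highest and lowest was 0.41. The gaps were 0.42 for Rdh11, 0.66 for Rdh14, 0.58 for Retsat, 0.30 for Rdh10 and 0.14 for Rarg. The mean differences behind the Retsat gap were -2.54 and -1.96, and those behind the Rarg gap were 0.27 and 0.41.

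**Figure D2:**
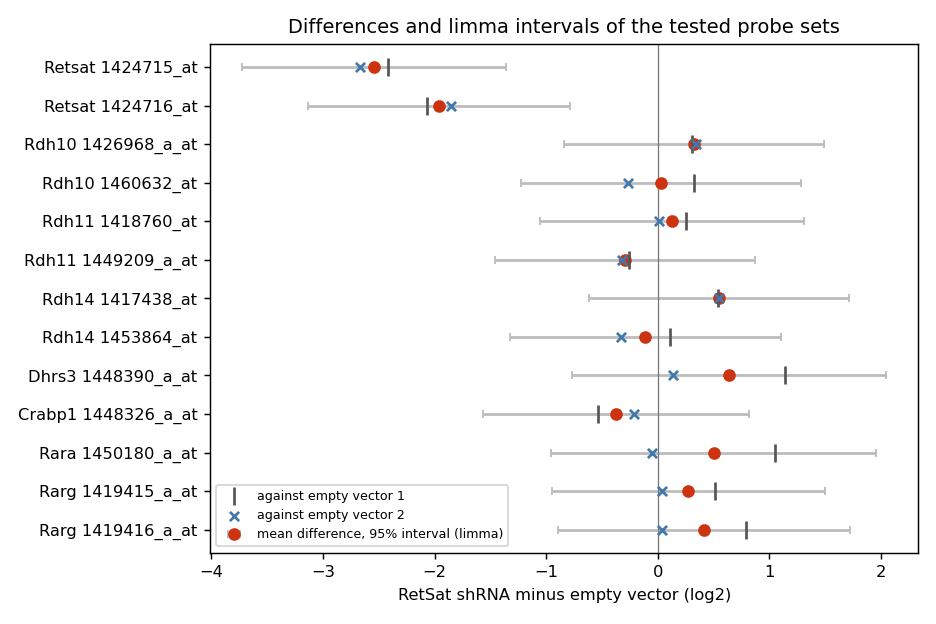
Log2 differences of RetSat shRNA from empty vector 1 (bars), from empty vector 2 (crosses) and from their mean (circles, with limma's 95% interval) for the 13 tested probe sets. The intervals of the Retsat probe sets (-3.72 to -1.36 and -3.14 to -0.78) lie below 0 and those of the other 11 include it. The dimmer Retsat probe set, with the second of these intervals, reached the level for testing only through its controls.

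Dhrs3, Rara and Rarg shared an order in which empty vector 1 stood apart and RetSat shRNA lay close to empty vector 2. Dhrs3, a retinal reductase that limits retinoic acid formation and is known as a target of it, read 308.5, 628 and 692. Against empty vector 1 it was 2.24-fold higher, and against empty vector 2 it was 1.10-fold higher. The controls differed 2.04-fold from each other, more than the shRNA array differed from the nearer one. Its mean log2 difference of 0.64 (SE 0.592, interval -0.77 to 2.05, adjusted p = 1 in limma) came from a distance of 1.14 to empty vector 1 and of 0.14 to empty vector 2.

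Rara, the alpha retinoic acid receptor, read 52.4, 124 and 119.8. RetSat shRNA was 1.05 log2 above empty vector 1 and -0.05 from empty vector 2, and the latter turned to 0.02 under median centring. Rarg, the gamma receptor, which is prominent in skin and fibroblasts, read 764, 1068 and 1095 on 1419415_a_at. Its second probe set, 1419416_a_at, read 261, 449 and 460.2 and repeated that order. The differences from empty vector 1 were 0.51 and 0.79, and both differences from empty vector 2 were 0.04. On none of these 4 probe sets was RetSat shRNA more than 0.14 from empty vector 2. Empty vector 1 was the lowest array for 7 of the 13 tested member probe sets, against 46.2% of all tested probe sets, so the order itself was common. Of the proliferation genes, Cdk1, Plk1, Mcm2 and Mcm5 were likewise lowest on empty vector 1 and Mki67, Top2a and Bub1 highest there, and their part in this order was not tested.

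Because Dhrs3, Rara and Rarg shared an order of arrays, the DNA before their start sites was searched for core motifs of retinoic acid receptors. RefSeq promoter windows (build GRCm38.p6) were held for 7 of the 9 genes, as 14 windows of 250 bases before a start site, and for 32851 start sites in all. The core motifs, searched on both strands, were AGGTCA, found in 14.0% of all windows, and its variants AGTTCA, found in 11.8%, GGGTCA, found in 11.6%, and GGTTCA, found in 8.85%. Direct repeats of any pair of them with a spacer of 1, 2 or 5 bases were searched as well. At least 1 core motif was in 5 of the 14 windows and in 38.6% of all windows. No window of these genes held a direct repeat, which 0.164%, 0.174% and 0.0883% of all windows did, by spacer length. Of 4 Rara windows 1 held 4 core motifs, of 2 Rarg windows 1 held 1, and none of the 3 Dhrs3 windows held any. Which start sites NIH3T3 cells use was not measured. The Rara and Rarg windows with core motifs, for the receptors that shared an order, and the Retsat window, for the gene that differed most, are shown from 5′ to 3′ on the gene's strand, with core motifs of either strand in capitals.
Rara, chr11:98939461-98939710, plus strand: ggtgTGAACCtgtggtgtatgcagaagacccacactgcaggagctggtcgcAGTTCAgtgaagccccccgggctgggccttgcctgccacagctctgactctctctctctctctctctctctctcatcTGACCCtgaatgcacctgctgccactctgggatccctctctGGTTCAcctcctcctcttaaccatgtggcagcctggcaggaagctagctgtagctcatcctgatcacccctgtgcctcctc
Rarg, chr15:102257523-102257772, minus strand: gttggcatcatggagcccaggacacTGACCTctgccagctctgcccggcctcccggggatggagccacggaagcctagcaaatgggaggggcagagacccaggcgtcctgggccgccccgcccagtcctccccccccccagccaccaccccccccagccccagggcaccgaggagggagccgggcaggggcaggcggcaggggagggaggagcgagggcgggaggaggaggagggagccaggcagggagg
Retsat, chr6:72598352-72598601, plus strand: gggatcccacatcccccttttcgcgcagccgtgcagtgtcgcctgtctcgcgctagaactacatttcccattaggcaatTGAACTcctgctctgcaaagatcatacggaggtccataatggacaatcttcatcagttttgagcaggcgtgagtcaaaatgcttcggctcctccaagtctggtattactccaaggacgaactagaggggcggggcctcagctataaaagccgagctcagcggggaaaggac
In the Rara window the motifs begin 246, 199, 122 and 81 bases before the start, in Rarg 225 and in Retsat 171. These matches describe the letters only.

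The binding proteins were read by 1 probe set each. Crabp1, which holds retinoic acid in the cytoplasm, read 671, 535 and 462. RetSat shRNA was below both controls, with log2 differences of -0.53 and -0.21, while the controls differed by 0.32 on the log2 scale. The mean difference was -0.37 (SE 0.501, interval -1.56 to 0.82, adjusted p = 1 in limma), and 13.8% of tested probe sets lay as far below both controls. Crabp2, which delivers retinoic acid to its receptors, read 7.4, 2.8 and 9.0, under the threshold for testing on every array, so no difference is given for it.

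**Figure D3:**
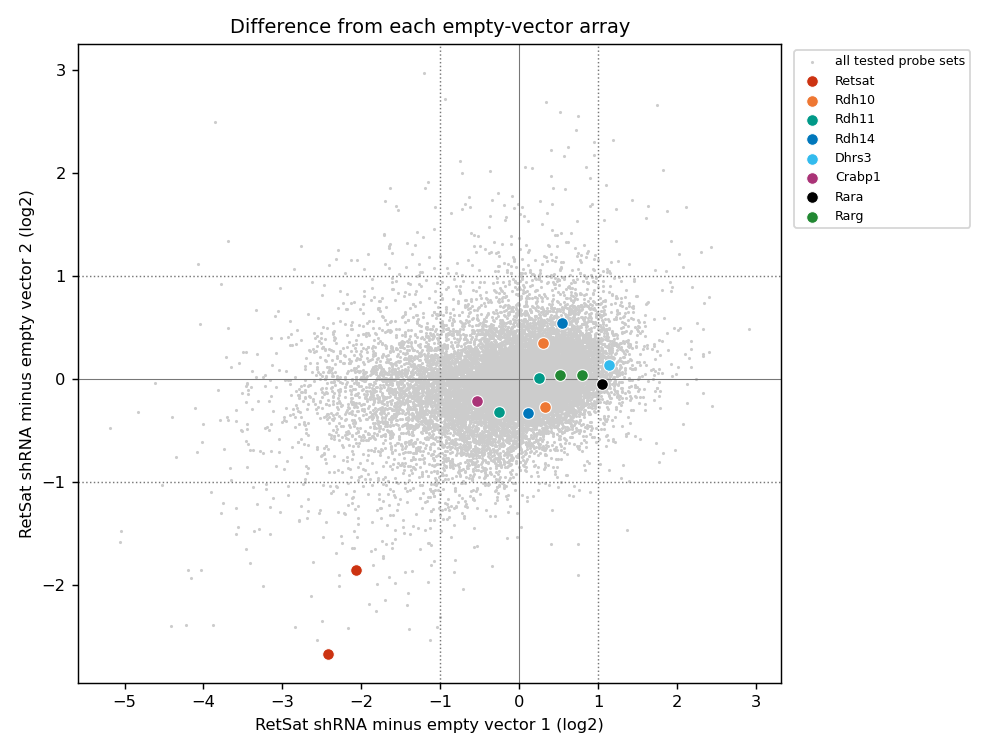
Log2 difference of RetSat shRNA from empty vector 1 (horizontal) and from empty vector 2 (vertical), 1 point per tested probe set, with the 13 member probe sets coloured by gene and dotted lines at 2-fold. The Retsat points lie at -2.42 and -2.67, and at -2.07 and -1.85. Dhrs3 and Rara lie past 2-fold against empty vector 1 and near 0 against empty vector 2.

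Across the 13 tested member probe sets, 6 lay above both empty-vector arrays and 4 below both. Of all tested probe sets 30.8% lay above both and 29.2% below. Centring the arrays on their medians raised the share above among all probe sets outside the controls from 51.3% to 64.7%, and put 7 members above, Rara being the addition. Without empty vector 1, 7 of the 13 lay below the remaining control, as did 51.3% of all tested probe sets. Without empty vector 2, 9 lay above it, as did 52.9% of all. The members' median log2 difference was 0.31 against empty vector 1 but -0.05 against empty vector 2, beside 0.05 and -0.01 over all tested probe sets. The unadjusted p of the 11 tested probe sets other than those of Retsat ran from 0.302 (Rdh14) to 0.957 (Rdh10) in limma. Each of their intervals reaches past 1 on the log2 scale in at least 1 direction, so 2-fold differences are not outside what these arrays allow.

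Among the other tested genes of the retinoid pathway lists, none met the 2-fold rule on its brightest probe set. They are counted here with 1 probe set a gene, the brightest, where 34.4% of all 10843 tested genes lay above both controls and 25.4% below. Of 14 tested retinoid enzymes, 7 lay above and 2 below, with median log2 differences of 0.27 (empty vector 1) and -0.03 (empty vector 2, which turned to 0.03 under median centring). Aldh1a7, a member of the retinal dehydrogenase family, read 239.5, 214 and 158.5. Akr1b10, an aldo-keto reductase that can reduce retinal, read 289.7, 155 and 139. Adh5, an alcohol dehydrogenase, read 2920.2, 3347 and 3635, and Rdh12, a retinal reductase of photoreceptors, read 74.3, 39.9 and 80.4. On these brightest probe sets, only for Aldh1a7 among these 4 did the smaller of the differences exceed the gap between the controls in size. The larger one does so for any gene outside both controls. Akr1b10 had another, less bright tested probe set, at -0.51 from empty vector 1 and -0.32 from empty vector 2. On that probe set too the smaller difference exceeded the gap between the controls in size.

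Carriers and uptake genes numbered 4 tested, 2 above and 2 below (none below under median centring), with medians of 0.27 and -0.02, the latter turning to 0.05 under that centring. Fabp5, a fatty acid binding protein that can also carry retinoic acid, read 10292, 13742 and 15157. The lipoprotein receptor Lrp1 read 2289.9, 2327 and 2145, and the scavenger receptor Scarb1, which takes up carotenoids and lipids, read 1070.3, 1666 and 1759.9. Rbp3, a retinoid binding protein of the eye, was dim at 33, 61.9 and 32.5. The receptor partners and cofactors had 1 of 11 above and 5 below, with medians of -0.05 and -0.07. Under median centring the counts were 4 and 4 and the first median 0.06. With quantile normalization they were 1 and 3, and the first median 0.12. The coactivators Ncoa1 (342, 266 and 223), Ncoa2 (496, 381 and 345) and Ncoa3 (128, 135 and 112) and the corepressor Nrip1 (195.5, 138 and 119.6) were the named genes of this list. Each of these 4 was lowest on RetSat shRNA, but the rule that named them puts genes outside both controls first.

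Retinoic acid response genes had 3 of 10 above both controls and 1 below, and their medians were 0.30 and -0.07. The median between the controls was 0.50, larger than either. Hoxa5 read 574, 650.2 and 742, the immediate early gene Egr1 read 1786, 1634 and 1958, and Meis1, a homeobox cofactor, read 185.9, 266 and 288. Nrip1, given above, was the gene below both. Cyp26b1, which degrades retinoic acid and is induced by it, read 159, 362 and 266 and so lay between the controls. Several of the best known response and storage genes were too dim to test, among them Rarb (at most 18.4 on any array and probe set), Cyp26a1 (35.0), Stra6 (62.2) and Lrat (22.1).

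PPARG and adipocyte genes, counted because Retsat is known from fat cells, had 3 of 10 above and 1 below, with medians of 0.04 and 0.12. Pparg itself read at most 5.6. Plin4, a lipid droplet protein, read 68.6, 68.9 and 40.5. The controls were level there and RetSat shRNA lower, at -0.64 from each. Cebpb (5235, 6283 and 7144), Cebpd (5653, 6415 and 7158) and Srebf1 (348, 548 and 584), transcription factors of fat cell and lipid programmes, read highest on RetSat shRNA. No tested gene of this list met the 2-fold rule on its brightest probe set.

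**Figure D4:**
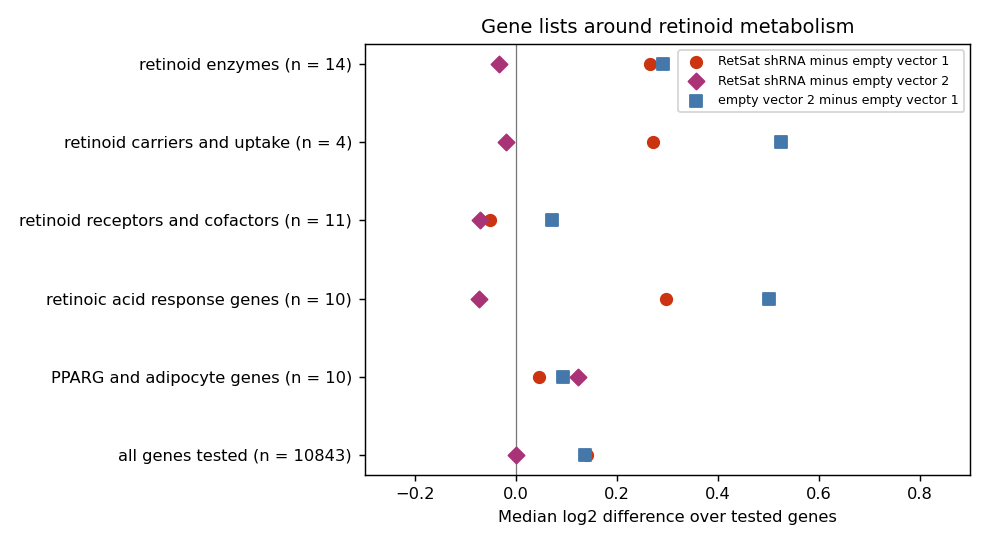
Median log2 difference over the tested genes of each list and over all 10843 tested genes, for RetSat shRNA against either empty-vector array and for empty vector 2 against empty vector 1. Retinoic acid response genes lie at 0.30, -0.07 and 0.50, and all genes at 0.14, 0.00 and 0.14.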

How the data were processed

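The arrays were made from total RNA of 2 empty-vector samples and 1 RetSat shRNA sample, with biotin as the label. The deposited value of each probe set is a linear intensity. The 2% trimmed mean of these values was 250.002 on each array, so they had been scaled before deposit. The software is not given in the sources used. Having 3 arrays limits the precision, and the p-values reflect only how these arrays vary, possibly for technical reasons.

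Array control probe sets were left out. Gene symbols came from the platform annotation and, looked up by gene ID, 34741 of 34945 matched RefSeq (GRCm38.p6) and 0 changed. Differences were fitted per probe set with lmFit and eBayes in limma 3.58.1 (R 4.3.3) on log2(signal + 10.2), the offset being the 25th percentile of all values, two-sided, with Benjamini-Hochberg adjustment over 19518 probe sets and calls made at 0.05. The fit has only 1 residual degree of freedom, and its code was tested on simulated data. No further normalization was applied. The members and gene lists were chosen with earlier results of these data known. Of each list, up to 4 genes were named, ranked by whichever of their 2 control differences was smaller in size where both had 1 sign, and the 10 probe sets nearest to Retsat were named too. Others (fibroblast and other markers, Cyp26b1, Mki67 and the dim genes) were named after their values were seen.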

Additional observations from a re-analysis of the deposited data

How the results depend on the processing

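Both Retsat probe sets kept their direction under offsets of 1 and 50, no filter, quantile normalization, median centring and a robust variance prior. Neither passed limma under these. The 75th percentile filter and 1 probe set a gene tested only the brighter one. It kept its direction there and did not pass limma (adjusted p = 0.266 with that filter). The mean log2 difference ran from -2.69 to -2.08 and from -2.41 to -1.13, the ends set by the offsets. Limma called 0 probe sets under all of these settings. Of 127 alternative values of the member probe sets, 5 changed sign. Rdh14 1453864_at became 0.013 with quantile normalization and 0.11 without empty vector 2. The other 3 also came from leaving out a control: Rdh10 1460632_at became -0.27 and Rara -0.05 without empty vector 1, and the dim Rdh14 1457019_s_at became -1.10 without empty vector 2. The members at least 2-fold below both controls became 1 with the 75th percentile filter and 1 with 1 probe set a gene, since these leave out the dimmer Retsat probe set. The members below both controls became 2 with 1 probe set a gene, and were 7 without empty vector 1 and 4 without empty vector 2.

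Over all probe sets, the counts at least 2-fold above both controls were 53 with an offset of 1, 5 with 50, 780 without a filter, 1 with the stricter one, 63 with quantile normalization, 50 with median centring and 10 with 1 probe set a gene. Those at least 2-fold below were 259 with an offset of 1, 15 with 50, 950 without a filter and 2 with the stricter one. They were 137 with quantile normalization, 139 with median centring and 54 with 1 probe set a gene. Counts above both were 10719 without a filter, 3669 with the stricter one and 3732 with 1 probe set a gene, and those below both were 11143, 2506 and 2753. Leaving out empty vector 1 or 2 gave 228 to 698 at least 2-fold above, 295 to 2472 at least 2-fold below, 9485 to 10328 above and 9179 to 10013 below. These settings test fewer or more probe sets, or ask for a difference from 1 control; for the offsets and scalings the cause was not tested. Median centring moved the median difference of all tested probe sets from empty vector 1 from 0.05 to 0.16. No paired analysis was possible because the groups share 1 replicate number, the 2 in the titles of empty vector 2 and the shRNA array. Dim signals limit Crabp2 and the third Rdh14 probe set most.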

Other observations

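Among the 10342 tested probe sets at or above the 75th percentile of mean signal, 3 lay at least 2-fold outside both empty-vector arrays: the brighter Retsat probe set and 1 probe set each of Smarcb1 and Sf1, which were picked out after their values were seen. Smarcb1, a subunit of the SWI/SNF chromatin remodeller, read 343, 348 and 156 on 1435856_x_at (empty vector 1, empty vector 2 and RetSat shRNA), but 862.5, 1298 and 1307 on 1416045_a_at. Its dim 1456938_at read 4.4, 39.9 and 4.8, with RetSat shRNA between the controls. The lower reading of 1435856_x_at was thus not repeated by the other Smarcb1 probe sets. Sf1, a splicing factor, read 139, 193 and 639 on 1459766_x_at, and 8199, 9135 and 9949 on 1459765_s_at, both highest on RetSat shRNA. Its 1423750_a_at read 1127, 1761 and 1688, with RetSat shRNA between the controls. By smaller steps, 1422321_a_at (263, 273 and 282) and 1423751_at (98.5, 113 and 126) were highest on RetSat shRNA.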
